A study of Mus musculus with 16 samples.

Results

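CD4+ T cells that carried at least 1 transcript of Foxp3, the master transcription factor of regulatory T (Treg) cells, made up 941 of the 8932 IL-4eGFP- CD4+ T cells that could be assigned to a node and a mouse, in a series of 26002 cell barcodes. They came from the mediastinal lymph node (medLN), which drains the lung, and the mesenteric lymph node (MLN), which drains the gut. The donors were 2 4get/C57BL/6 mice, which carry eGFP behind the Il4 gene so that cells with an active Il4 locus fluoresce, and which were 10 weeks old and at day 10 of infection with the hookworm-like nematode Nippostrongylus brasiliensis. All cells of the comparisons below carry the reporter and come from infected mice, and no uninfected mouse is among them. The cells of each node and mouse carried a hashtag antibody of their own, were sorted as CD4+IL-4eGFP+ or CD4+IL-4eGFP- and were then multiplexed by gate. Each sort gate gave 1 single-cell 5′ RNA library, so that gate and library cannot be told apart. A hashtag sample, named here medLN 1, medLN 2, MLN 1 or MLN 2 by node and mouse, is the unit of every test. There are thus 4 samples from 2 mice, and p-values measure the spread between these samples.

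Treg cells restrain other T cells and dendritic cells. Foxp3 keeps the high-affinity IL-2 receptor and the inhibitory receptor CTLA-4 on, and Treg cells make almost no IL-2 themselves, so that they depend on IL-2 from their neighbors and on its signal through STAT5. Resting Treg cells recirculate through lymph nodes with CCR7, whereas effector Treg cells gain ICOS, chemokine receptors, integrins and suppressive molecules and can leave for tissues such as lung and gut. In helminth infection they limit both the type 2 response and tissue damage.

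The node and mouse of each cell rest on the barcode of its hashtag antibody, and these 4 designed sequences are shown because every sample in the text is read from them.
medLN 1: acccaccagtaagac
medLN 2: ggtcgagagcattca
MLN 1: cttgccgcatgtcat
MLN 2: aaagcattcttcacg
Of 10080 IL-4eGFP- barcodes, 10026 had over 500 UMIs (unique molecular identifiers, each counting 1 captured transcript), over 500 genes and under 7% mitochondrial UMIs. A top hashtag with at least 10 UMIs and 80% of the hashtag UMIs was found in 8932 of these, and 1094 fell under the share. Just under that limit, with 75 to 80%, were 68 cells of which 15 had a Foxp3 UMI, and just above it, with 80 to 85%, were 41 cells of which 11 had one. A Foxp3 UMI was present in 1155 of the 10026 cells and in 941 of the 8932. The limit thus left out cells with a Foxp3 UMI more often than cells without one. The same barcode occurred in both gates 155 times, and 17 of the Foxp3+ cells were among these. The Foxp3+ cells numbered 231 in medLN 1, 279 in medLN 2, 191 in MLN 1 and 240 in MLN 2, with median depths of 3153, 2952, 2997 and 2805.5 UMIs, against 3287 to 3430 in the 7991 Foxp3- cells. They held 688491 to 1185166 UMIs per sample.

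The Treg label was held against Il2ra (the IL-2 receptor α chain), Ikzf2 (the transcription factor Helios) and Ctla4, none of which the choice of cells used. At least 1 of these was detected in 86.1% of Foxp3+ cells and in 11.4% of Foxp3- cells, and all 3 in 27.3% against 1.49%. Foxp3 was counted once in 425 cells, 2 times in 239 and more often in 277. Of the cells with 1 Foxp3 UMI 77.4% had a marker, and of those with 2 UMIs 93.3%, so that cells at the limit carried the markers less often than cells above it but far more often than cells with none. After thinning each cell to 1500 UMIs, which left out 49 of the Foxp3+ cells as too shallow, the shares with any marker were 76.6% and 7.66%. The Foxp3- group is thus not free of cells with Treg markers, and a Treg cell whose Foxp3 RNA was not captured counts as Foxp3- here. The 4 T cell genes Cd3e, Cd3d, Cd4 and Lck summed to 3083 to 3097 CPM (UMIs scaled to the total of the summed cells) in Foxp3+ cells. Of 8 B cell genes, Ms4a1 and Pax5 were among those at 0 in every Foxp3+ sum, while the list as a whole summed to 316 to 459 CPM against 188 to 214 CPM in Foxp3- cells. The 8 myeloid genes summed to 331 to 395 CPM against 259 to 308 CPM, with a UMI of each gene in both, and the 4 hemoglobin genes were at 0. Without the cells that held a defining marker (among them Cd79a, Ms4a1, Pax5, Cd8a, Lyz2, Csf1r, Itgam, Fcer1g, Tyrobp, Cd68 and the hemoglobin genes), an alternative chosen after seeing the data, 2714 genes were called in place of 2725 in the comparison of Foxp3+ with Foxp3- cells given below.

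Foxp3+ cells were found at overlapping shares in both nodes and were much rarer in the other gate. The medLN of mouse 1 had 10.3% among its IL-4eGFP- cells (exact 95% interval 9.05 to 11.6) and that of mouse 2 had 12.6% (11.2 to 14.0). The MLN of mouse 1 had 8.44% (7.33 to 9.66), that of mouse 2 had 10.9% (9.64 to 12.3), and these intervals cover counting error only. The means were 11.4% ± 1.62 (SD, n = 2) in medLN and 9.67% ± 1.75 (SD, n = 2) in MLN, and the ranges of the nodes overlapped (exact two-sided permutation test, p = 0.667, where 0.333 is the smallest p that 2 against 2 samples allow). In both mice the medLN share lay above the MLN share. Among IL-4eGFP+ cells, Foxp3 was detected in 1.02% (21 cells) of medLN 1, 1.34% (28 cells) of medLN 2, 2.69% (54 cells) of MLN 1 and 3.23% (65 cells) of MLN 2, at median depths of 3165.5 to 3627 UMIs in their Foxp3- cells. There the order of the nodes was the reverse, with both MLN samples above both medLN samples (1.18% ± 0.230 against 2.96% ± 0.377, SD, n = 2 each, exact permutation p = 0.333, the smallest possible). The change of order between the gates was not tested. In the separate run of IL-4eGFP+ cells, which came from 2 other and older mice of the same strain, the lung libraries had shares of 0.498% and 0.481%, the MLN libraries 0.249% and 0.556%, at median depths of 4790 to 6139 UMIs. The lowest share in IL-4eGFP- cells thus lay above every share in IL-4eGFP+ cells, whose interval did not reach it.

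**Figure D1:**
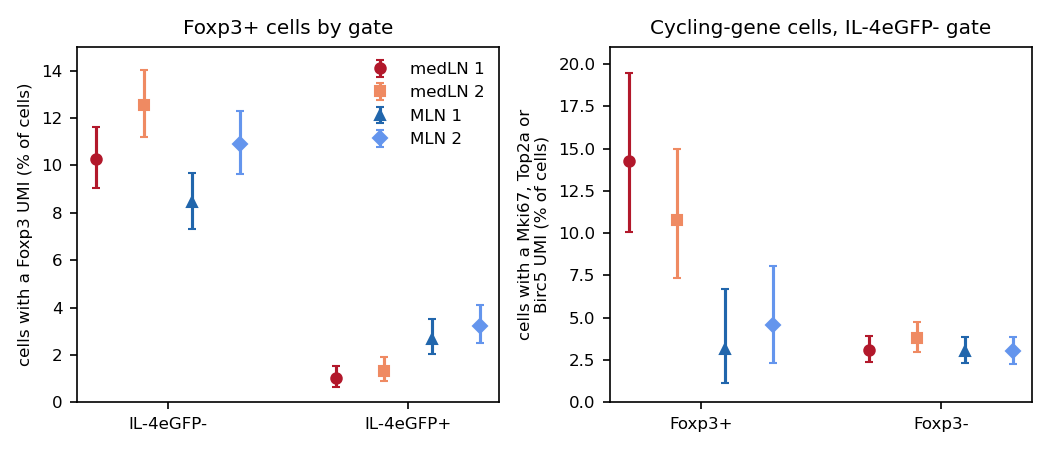
Percent of cells with a Foxp3 UMI in each hashtag sample by sort gate (left), and percent of IL-4eGFP- cells with a UMI of Mki67, Top2a or Birc5 in Foxp3+ and Foxp3- cells (right), with exact 95% intervals from counts of cells. Foxp3+ cells are 8.44 to 12.6% of IL-4eGFP- cells and 1.02 to 3.23% of IL-4eGFP+ cells, and cells with a cycling gene reach 14.3% and 10.8% in the medLN Foxp3+ samples and 3.14% and 4.58% in the MLN ones.

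Cells with a UMI of Mki67, Top2a or Birc5, which cells express while they divide, were unevenly spread. They made up 14.3% of the Foxp3+ cells in medLN 1 and 10.8% in medLN 2, but 3.14% in MLN 1 and 4.58% in MLN 2, and the exact intervals did not overlap in mouse 1 but did in mouse 2. Among Foxp3- cells the shares were 3.07, 3.81, 3.04 and 3.01% in the same order. At 1500 UMIs per cell the Foxp3+ shares were 11.8, 8.85, 1.66 and 3.46%. Both medLN samples thus stood above both MLN samples among Foxp3+ cells, while the Foxp3- samples lay within 1 percentage point of each other.

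To ask what else sets the Foxp3+ cells apart, UMIs were summed over the Foxp3+ and over the Foxp3- cells of each sample and compared within samples. Of 10559 genes tested, 2725 differed (25.8%), 1515 of them higher (14.3%) and 1210 lower (11.5%) in Foxp3+ cells, at an adjusted p below 0.05 in edgeR's quasi-likelihood test with Benjamini-Hochberg adjustment, which is the test meant wherever an adjusted p is given. Foxp3 itself chose the cells and was left out, with 469, 530.0, 576 and 590.2 CPM in the Foxp3+ cells of medLN 1, medLN 2, MLN 1 and MLN 2, the order in which the values of 4 samples are given throughout. Log2 differences are given with their standard error on the scale of TMM normalization, on which they lie 0.16 under the log2 ratio of CPM values in the median gene. All 20 genes of a Treg core list rose, with a median log2 difference of 2.72 against -0.02 over all genes tested.

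The receptor subunits for IL-2 were among them. Il2ra was at 549, 516, 592 and 554 CPM in Foxp3+ cells and at 35.8, 34.6, 48.2 and 32.7 CPM in the Foxp3- cells of the same samples, a log2 difference of 3.72 ± 0.09 (adjusted p = 2.2e-15). Il2rb, the β chain that carries the signal, was at 387, 406, 404 and 437 CPM against 52.1 to 61.3 CPM (2.68 ± 0.08). Neither gene's groups overlapped. In sums over cells, fewer cells with a transcript and fewer transcripts per cell cannot be told apart. Among the costimulatory receptors of the TNF family, Tnfrsf4 (OX40) was at 697, 857, 466 and 379 CPM against 49.7, 58.1, 37.1 and 30.9 CPM (3.59 ± 0.08, adjusted p = 1.0e-15), with its highest levels in the medLN samples of both groups. Tnfrsf18 (GITR), Tnfrsf9 (4-1BB) and Tnfrsf1b (TNF receptor 2) differed by 1.87, 2.37 and 2.60. Ctla4, which strips costimulatory ligands from antigen-presenting cells, was at 484, 511, 436 and 478 CPM against 31.4, 33.8, 25.3 and 29.2 CPM (3.84 ± 0.08, adjusted p = 1.0e-15), with less than 1.5-fold spread within either group. Ikzf2 was at 473, 501, 426 and 385 CPM against 41.1, 44.6, 35.1 and 23.3 CPM (3.49 ± 0.09), and its relative Ikzf4 (Eos) differed by 2.57. Izumo1r (folate receptor 4) had the highest level of the list, 922, 935, 1026 and 900.0 CPM, and was at 150.4 to 189.9 CPM in Foxp3- cells, a log2 difference of 2.27. The same direction was seen in all 4 samples for each of the 20 genes.

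**Figure D2:**
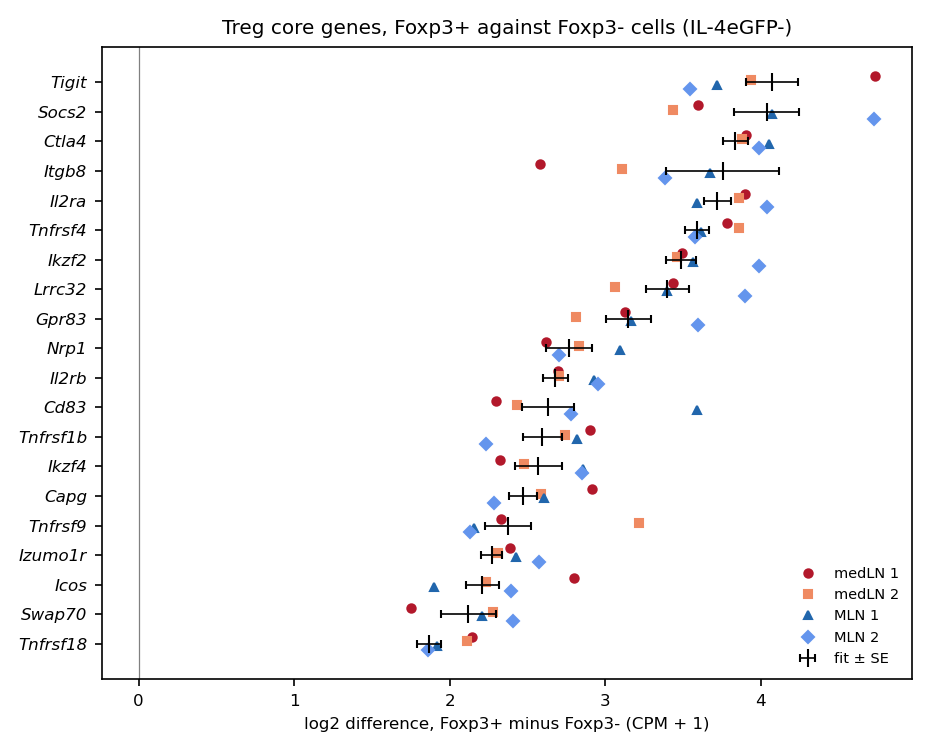
Log2 differences of CPM + 1 between Foxp3+ and Foxp3- cells of the IL-4eGFP- gate for the 20 Treg core genes, 1 colored point per hashtag sample, and the fitted log2 difference with its standard error in black. Every point lies above 0, from fitted values of 1.87 for Tnfrsf18 to 4.07 for Tigit.

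Of 17 suppressive molecules 16 could be tested, 15 were higher in Foxp3+ cells and 1 was lower, with a median log2 difference of 3.42. The largest by level were Lgals1 (galectin-1), Ctla4 and Tgfb1 (TGF-β1), of which Tgfb1 differed little: it was at 255, 287, 211 and 170.1 CPM against 148, 155, 147 and 132 CPM (0.50 ± 0.09, adjusted p = 2.7e-04). Tgfb1 thus is a gene of both populations, with Foxp3+ levels above the Foxp3- level of the same sample 4 times of 4. Genes of TGF-β activation were far more restricted. Lrrc32 (GARP), which holds latent TGF-β on the cell surface, was at 113, 120.2, 111 and 154 CPM against 9.36 to 13.5 CPM (3.40 ± 0.14), and Itgb8, whose integrin releases it, at 15.2, 25.4, 20.4 and 15.3 CPM against 0.559 to 2.05 CPM (3.76 ± 0.37). Both enzymes of extracellular adenosine production rose, Entpd1 (CD39) by 2.66 from a low level of 1.61 to 2.00 CPM and Nt5e (CD73) by 2.06. Ebi3, a subunit of IL-35, was at 56.7, 55.0, 35.0 and 36.4 CPM against 3.24 to 5.14 CPM (3.44 ± 0.20), while the other subunit, Il12a, had a UMI in 0 of 941 Foxp3+ cells, which allows a share of up to 0.319% of cells with a UMI. Il10 was rare: 14 Foxp3+ cells held its 28 UMIs, at 5.06, 0.847, 11.7 and 16.4 CPM, and in medLN 2 it was 1 UMI in 1 cell. The lower gene was Prf1 (perforin), at 3.04, 5.08, 4.37 and 10.6 CPM against 15.1, 18.5, 15.9 and 15.4 CPM (-1.68 ± 0.29), whereas its partner protease Gzmb (granzyme B) was at 148, 69.4, 53.9 and 150.2 CPM against 0.428, 2.35, 1.08 and 14.1 CPM (4.58 ± 0.37) in 58 Foxp3+ cells. Penk (proenkephalin) needs the same caution, since 155 of its 205 UMIs in medLN 2 came from 1 cell.

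The IL-2 and STAT5 pathway did not move as a block. Of 15 members tested 7 were higher and 2 lower in Foxp3+ cells, with a median of 0.15. Il2 itself was likewise at 0 of 941 Foxp3+ cells (up to 0.319%) and at 2.14, 3.08, 0.945 and 1.12 CPM in Foxp3- cells, too few to test. Of the targets and feedback inhibitors of STAT5, Socs2 was at 62.8, 70.3, 102 and 77.4 CPM against 4.28, 5.58, 5.13 and 1.96 CPM (4.04 ± 0.21, adjusted p = 1.8e-10), Cish at 141, 175, 197 and 176 CPM against 50.2, 56.5, 37.1 and 43.8 CPM (1.71 ± 0.12), and the kinase gene Pim1 differed by 1.89 ± 0.08. Socs3 did not pass the test, at 94.2, 118, 143 and 189 CPM against 112, 131, 103 and 155 CPM (-0.07 ± 0.11, adjusted p = 0.7), and its groups overlapped. Jak3 and Stat5a were higher by 0.61 and 0.59, and the common γ chain, Jak1, Stat5b, Socs1 and Mcl1 did not pass. Il7r, the receptor for the other main survival cytokine of T cells, was lower, at 127, 148, 143 and 116 CPM against 242, 208, 232 and 220.1 CPM (-0.91 ± 0.09), and so was the survival gene Bcl2, at 137, 155, 227 and 279 CPM against 260.3, 276, 239 and 279 CPM (-0.61 ± 0.13). For Bcl2 the groups overlapped, because MLN 2 reached the Foxp3- level.

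STAT5 binds a palindrome of TTC and GAA with 3 bases between them, so the promoters of these genes were searched for TTCNNNGAA, which reads the same on both strands. In the RefSeq promoters of GRCm38.p6, from 250 bases before to 50 bases after the start of each gene, 8.30% of 32851 held the motif. Of the 16 pathway genes 14 had a promoter in this set, and 3 held matches that all fit in a window of 30 bases. Promoters with matches further apart were not counted among the 3, so the 3 cannot be set against the 8.30%. All 3 that fit the window are shown, whatever their change above: Cish rose, Socs3 did not pass and Il7r fell. The windows of 30 bases are written in the direction of transcription, with the motif in capitals.
Cish, chr9:107296654-107296683, plus strand: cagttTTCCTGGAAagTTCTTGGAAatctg
Socs3, chr11:117969501-117969530, minus strand: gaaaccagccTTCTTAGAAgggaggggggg
Il7r, chr15:9529999-9530028, minus strand: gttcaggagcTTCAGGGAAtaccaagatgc
Cish held 2 matches, with first bases 0 and 11 bases from the start, Socs3 1 match at -154 and Il7r 1 match at -142. A match in these letters is a description of the sequence and not a binding site.

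Among 21 factors that Foxp3 is known to work with or beside, 6 were higher, 5 lower and 10 did not pass. The higher ones besides Ikzf2 and Ikzf4 were Gata3 (1.30), Irf4 (1.31), Stat5a and the methyltransferase gene Ezh2 (1.20). The lower ones were Ikzf1, Lef1, Satb1, Foxp1 and Bach2, of which the last 4 are also genes of resting T cells. Runx1 and Cbfb, which form a complex with Foxp3, differed by 0.04 ± 0.09 and -0.16 ± 0.11 and did not pass the test.

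Genes of resting T cells were lower as a group. Of 15 genes tested 14 were lower and 1, Id3, higher, with a median log2 difference of -0.91. Igfbp4 was at 90.2, 114, 111 and 239 CPM against 614, 703, 653 and 769 CPM (-2.52 ± 0.13, adjusted p = 1.9e-10) and Dapl1 at 9.12, 13.5, 11.7 and 25.8 CPM against 93.6, 88.1, 94.3 and 105 CPM (-2.83 ± 0.17), both with their highest Foxp3+ value in MLN 2. Tcf7 (TCF-1), a factor of naive and memory T cells, was at 186, 168, 197 and 224 CPM against 533, 529, 530.3 and 569.9 CPM (-1.65 ± 0.08). The recirculation genes Klf2 and S1pr1 differed by only -0.32 and -0.61, and Ccr7, which guides T cells into nodes, by -1.13. Among the 10 genes with the greatest loss were also Pdlim4 (-2.93 ± 0.11), Themis (-1.80 ± 0.11), a gene of T cell selection, and Dusp10 (-1.88 ± 0.10), a phosphatase gene, with no overlap of groups, and Lyst, Gramd3, Rflnb and Atn1, which fell by 2.08, 1.81, 1.72 and 1.68. One further name on that list, Igkv17-127, is an immunoglobulin segment: 11671 of its 11691 UMIs in the IL-4eGFP- cells came from 1 Foxp3- cell of medLN 1.

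Effector genes were higher in turn: 23 of 25 tested rose, 1 fell and 1 did not pass, with a median of 1.94. Itgae (CD103), the integrin chain that binds E-cadherin on epithelium, was at 91.2, 88.9, 119.5 and 93.9 CPM against 3.14, 7.34, 6.75 and 4.61 CPM (4.01 ± 0.17, adjusted p = 1.7e-11). Klrg1, a receptor of short-lived effector cells, was at 70.9, 50.8, 42.3 and 21.1 CPM against 0.285, 3.08, 0.540 and 4.05 CPM (4.37 ± 0.46), Ccr8 at 31.4, 82.1, 27.7 and 19.9 CPM against 2.28, 4.11, 2.57 and 0.838 CPM (3.84 ± 0.24), and Prdm1 (Blimp-1) at 33.4, 27.9, 26.2 and 21.1 CPM against 2.85, 3.23, 1.49 and 3.35 CPM (3.14 ± 0.27). These groups were apart in every sample, but each gene was seen in a minority of Foxp3+ cells. The gene that fell was Id2, at 26.3, 34.7, 29.2 and 16.4 CPM against 35.2, 38.3, 29.7 and 24.6 CPM (-0.43 ± 0.15, adjusted p = 0.041), a call lost in 10 of 17 alternative fits. Of the list of ST2+ and tissue-repair Treg cells 9 of 10 rose, with Il1rl1 (the IL-33 receptor ST2) at 17.2, 15.2, 8.75 and 3.52 CPM against 0.571, 0.440, 0.270 and 0.279 CPM (4.55 ± 0.49) and Areg (amphiregulin) detected in 15 Foxp3+ cells. Both of these are low in absolute terms, at 1.59% of Foxp3+ cells for Areg. All 4 genes of a list of thymus-derived Treg cells rose (Ikzf2, Ikzf4, Nrp1 and Gpr83), and so did Maf (2.94 ± 0.16), the one gene of the list of peripherally induced cells that was high enough to test, so that list says little.

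Of 22 homing genes 13 were higher and 3 lower. Ccr9, the receptor for the small-intestinal chemokine CCL25, was at 12.2, 13.5, 65.6 and 42.2 CPM against 3.57, 4.26, 9.18 and 8.80 CPM (2.102 ± 0.23), with the MLN samples above the medLN samples in both groups. Ccr2, the receptor for inflammatory monocyte chemokines, was at 28.4, 45.7, 20.4 and 27.0 CPM against 0.571, 2.49, 0.675 and 1.12 CPM (4.49 ± 0.30), and Itga4 and Itgb7, the chains of the gut-homing integrin, differed by only 0.59 and 0.28. Ccr7 and S1pr1 were among the lower ones. Of 5 tested genes of follicular Treg cells 4 were higher, Cxcr5 by 1.50 ± 0.26 and the decoy receptor Il1r2 by 4.52 ± 0.30, while Bcl6 was lower (-0.62 ± 0.19, adjusted p = 0.022), a call lost in 9 of 17 alternative fits. Of 15 genes of the T cell receptor (TCR) response 7 were higher and 1, Myc, lower, with Cd5, whose level follows the strength of self-recognition, at 379.9, 439, 349.9 and 379 CPM against 223, 197, 236 and 201 CPM (0.70 ± 0.08). Nr4a1 (Nur77) did not pass (0.54 ± 0.20, adjusted p = 0.06), and its Foxp3+ levels of 32.4, 79.6, 122 and 30.5 CPM spread over the Foxp3- range.

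Of 13 helper cytokine genes only 2 were high enough to test. Tnf was higher (0.98 ± 0.15), and Cd40lg, the ligand by which helper cells license B cells, was lower, at 12.2, 16.1, 21.9 and 15.3 CPM against 59.8, 61.9, 72.8 and 62.0 CPM (-2.15 ± 0.15). Of 15 interferon-response genes 2 were higher, 6 lower and 7 did not pass (median -0.36), and the 2 higher ones were Isg20 and Ifi27l2a, the latter at 2204, 1395, 1409.6 and 1257 CPM against 938, 676, 876 and 799 CPM (0.75 ± 0.08). Cell cycle genes were higher in 12 of 16 cases, with a median of 1.31. Mki67 was at 264, 229, 72.9 and 128 CPM against 17.8, 19.8, 18.9 and 30.3 CPM (2.81 ± 0.23), a gap that was wider in medLN. Gzma, at 47.6, 132, 220.1 and 758 CPM against 2.57, 3.38, 2.70 and 54.0 CPM (4.36 ± 0.24), and S100a6 (3.64 ± 0.25) were also among the 10 genes with the largest rise, and are taken up below because they differed between the nodes.

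The number of genes called moved with the depth per cell: it was 1639 when every cell was thinned to 1500 UMIs after the Foxp3 call and 1283 when the call was made on the thinned counts. When all cells with any gene of the B cell, CD8, myeloid or erythroid lists were left out, lists that also hold widely detected genes such as Cst3, 27 to 44 Foxp3+ cells per sample were left and 342 genes were called, and Lgals1 and S100a6 turned to -0.03 and -0.45 without passing.

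The next question was whether Foxp3+ cells of the lung-draining and the gut-draining node differ. Between the 2 medLN and the 2 MLN samples 310 of 7889 genes differed (3.93%), 176 higher in medLN (2.23%) and 134 lower (1.7%). The defining genes were not among them: Il2ra was at 549 and 516 CPM in medLN and 592 and 554 CPM in MLN (-0.18 ± 0.10, adjusted p = 0.41), Ctla4 at 484 and 511 CPM and 436 and 478 CPM (0.05 ± 0.10), and Ikzf2 at 473 and 501 CPM and 426 and 385 CPM (0.20 ± 0.10). The sign for Ctla4 changed in 5 alternative fits, and none of the 3 genes passed. Of the 20 Treg core genes 5 were higher in medLN (Tnfrsf4, Nrp1, Tigit, Icos and Capg), 1 was lower (Gpr83) and 14 did not pass, with a median of 0.18.

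Many of the calls moved with the dividing cells described above. Of 16 cell cycle genes 12 were higher in medLN and 0 lower (median 1.04), with Mki67 at 264 and 229 CPM in medLN and 72.9 and 128 CPM in MLN (1.18 ± 0.17, adjusted p = 4.8e-05) and Hmgb2 at 1063 and 1061 CPM and 380.5 and 512 CPM (1.17 ± 0.11). Pclaf, a PCNA partner (2.03 ± 0.18), Rrm2, a subunit of ribonucleotide reductase (2.08 ± 0.32), Ccna2 (1.73 ± 0.25), Top2a (1.55 ± 0.16), Hist1h1b (1.53 ± 0.19) and Incenp (1.52 ± 0.23) were 6 of the 10 genes with the largest excess in medLN. Without the 33, 30, 6 and 11 Foxp3+ cells that had a Mki67, Top2a or Birc5 UMI, an alternative chosen after seeing the data, 19 genes were called, and all 19 were among the 310 with the same direction. Their removal also lowered the sums, from 990433 to 649222 UMIs in medLN 1 and from 1185166 to 824355 in medLN 2. In MLN 1 the sum fell from 688491 to 626438 UMIs and in MLN 2 from 855279 to 750459. The part of this loss of counts in the fall of calls was not tested. DESeq2 called 142 genes, the fit without medLN 2 called 157, and 45 were called when each cell was thinned to 1500 UMIs after the Foxp3 call, of which 42 were among the 310.

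The 19 genes that were called with and without the dividing cells, 15 of them higher and 4 lower in medLN, were followed further because of that, and were thus chosen after their values were seen. Of these, 9 passed in DESeq2, which gave 6 others no adjusted p. After thinning that followed the Foxp3 call 11 passed, and 2 more were too low to test. Fits that left out 1 sample had a single sample in 1 node and could not measure its spread, so passing in them is not counted here. Among those higher in medLN, Tnfrsf4 was at 697 and 857 CPM in medLN 1 and medLN 2 and 466 and 379 CPM in MLN 1 and MLN 2, a log2 difference of 0.81 ± 0.11 (adjusted p = 1.5e-05), and of 0.84 without the dividing cells. Tigit, an inhibitory receptor that binds CD155 on dendritic cells, was at 170.2 and 165 CPM and 65.6 and 77.4 CPM (1.14 ± 0.16, adjusted p = 4.0e-05), and of 0.96 without the dividing cells. Both genes were separated by node in both mice, and passed in DESeq2 and after that thinning. When the Foxp3 call was made on the thinned counts, 10 genes were called between the nodes, 2 higher and 8 lower in medLN. At most 2 of the 15 genes higher in medLN can thus have passed there. Without cells holding any gene of the B cell, CD8, myeloid or erythroid lists, 2 genes were called, of which 0 were among the 310. Lgals1 was at 898 and 839.9 CPM and 439 and 292 CPM (1.19 ± 0.12), of which 0.59 was left without the dividing cells.

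Of the others higher in medLN, S100a6 was at 470.0 and 318 CPM and 146 and 43.4 CPM (2.04 ± 0.24) and S100a4 at 87.1 and 95.7 CPM and 29.2 and 1.17 CPM (2.65 ± 0.38), where the value of MLN 2 is 1 UMI in 1 cell. Both encode calcium-binding proteins of motile cells. Itgb1, the integrin β1 chain, was at 105 and 89.7 CPM and 48.1 and 24.6 CPM (1.38 ± 0.24) and Vim (vimentin) differed by 1.13. Irf4, a factor that effector Treg cells need, was at 42.5 and 77.0 CPM and 27.7 and 18.8 CPM (1.34 ± 0.30, adjusted p = 0.0055), and Il1r2, a decoy receptor for IL-1, at 52.7 and 59.3 CPM and 21.9 and 5.87 CPM (2.02 ± 0.33), from 15, 24, 3 and 3 cells. Nrp1 (neuropilin-1), a receptor of thymus-derived Treg cells, was at 98.3 and 89.7 CPM and 58.3 and 32.9 CPM (1.00 ± 0.22). In each of these genes MLN 2 was the lowest sample and MLN 1 lay between it and medLN, with Vim at 792 and 785 CPM and 469 and 226 CPM. S100a6 and Vim did not pass in DESeq2 (adjusted p = 0.14 and 0.20), which gave S100a4, Itgb1, Irf4, Il1r2 and Nrp1 no adjusted p. After thinning, Itgb1 and Nrp1 did not pass (adjusted p = 0.073 and 0.15) and Il1r2 was not tested. S100a4, S100a6, Irf4 and Vim passed after thinning. The sizes rested on single samples for some. Without MLN 1 the differences of S100a4, S100a6, Il1r2 and Vim were 6.05, 3.07, 3.14 and 1.70. Without MLN 2 those of S100a4, Il1r2 and Vim were 1.59, 1.30 and 0.69. Irf4 was at 0.83 without medLN 2 and Nrp1 at 0.63 without MLN 2, and neither passed there.

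Higher in MLN were Ccr9 and Gzma. Ccr9 was at 12.2 and 13.5 CPM in medLN and 65.6 and 42.2 CPM in MLN, a log2 difference of -2.099 ± 0.31 (adjusted p = 5.5e-05) and of -1.55 without the dividing cells, and it was seen in 3.90, 2.51, 6.28 and 10.0% of the Foxp3+ cells. Gzma (granzyme A) was at 47.6 and 132 CPM and 220.1 and 758 CPM (-2.51 ± 0.33), but 1 cell held 130 of its 156 UMIs in medLN 2 and 1 cell 191 of its 646 UMIs in MLN 2. The Gzma difference was -0.95 without the dividing cells and -1.31 without MLN 2, and it did not pass in DESeq2 (adjusted p = 0.16) or when Foxp3+ and Foxp3- sums were fitted together (adjusted p = 0.074). Ly6c1, which encodes a lipid-anchored surface protein, was at 81.04 and 81.3 CPM and 165 and 174 CPM (-1.14 ± 0.15), and the ribosomal gene Rps24 differed by -0.46. Both passed in DESeq2, but after thinning Ly6c1 did not pass (adjusted p = 0.13), whereas Rps24 and Gzma did. Ccr9 had no adjusted p in DESeq2 and was not tested after thinning. Of the genes that passed only with all cells, Gpr83 was at 63.8 and 80.4 CPM and 121 and 121 CPM (-0.81 ± 0.17) and Bcl2 at 137 and 155 CPM and 227 and 279 CPM (-0.88 ± 0.14). Penk, which had the largest log2 difference of all named genes (3.19 ± 0.62), rests on the 1 cell of medLN 2 described above, and Il10, lower in medLN by this test (-2.38 ± 0.65), on the few cells counted there.

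**Figure D3:**
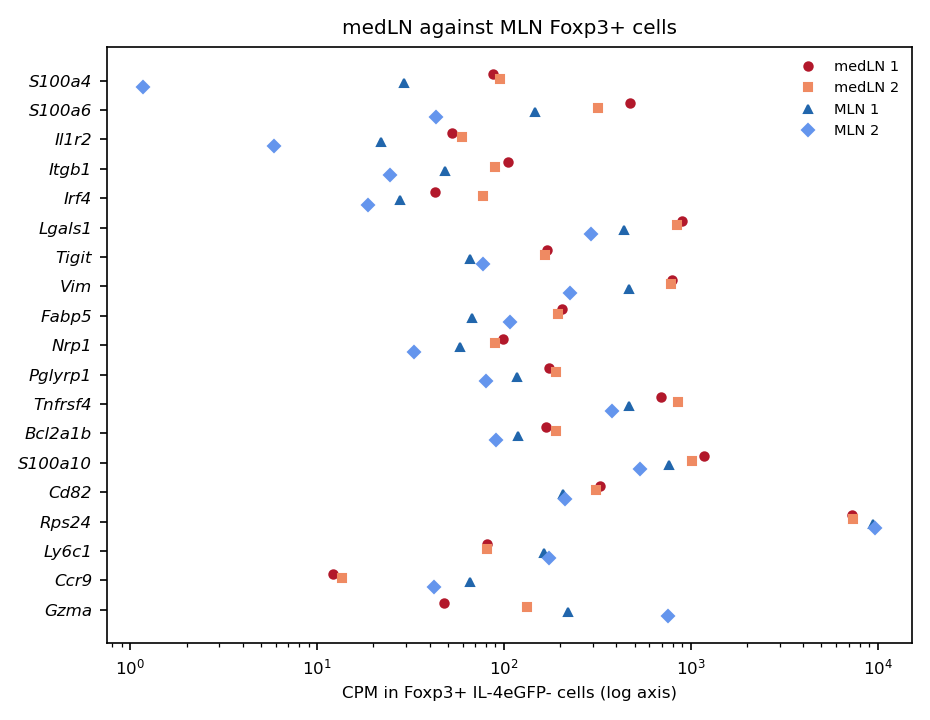
CPM on a log axis in the Foxp3+ IL-4eGFP- cells of each hashtag sample for the 19 genes called between medLN and MLN with and without dividing cells. In 15 genes both medLN samples lie right of both MLN samples, and in Rps24, Ly6c1, Ccr9 and Gzma they lie left of them.

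Of the remaining lists, effector genes were higher in medLN in 9 of 25 cases and lower in 0 (median 0.51), suppressive molecules in 4 against 1 of 14 (0.28) and tissue-repair genes in 3 against 0 of 8 (0.70). Resting genes were lower in 3 of 15 cases (Bcl2, Foxp1 and Igfbp4; median -0.34), interferon-response genes in 3 of 15 (Ifit3 and Rtp4 among them; -0.68), and members of the IL-2 and STAT5 pathway in 2 of 15 (Bcl2 and Socs3; -0.17). Ifit3 and Rtp4 had their lowest value in medLN 2, with Rtp4 at 84.1, 38.1, 88.9 and 124 CPM over the 4 samples. Of 21 partner factors 2 were higher and 1 lower, of 21 homing genes 2 and 1, of 5 follicular genes 1 and 0, of 12 TCR response genes 1 and 0, of the 4 thymic genes 1 and 1, and neither the 1 induced nor the 2 helper cytokine genes passed.

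Whether these differences belong to Foxp3+ cells was tested as the difference of the differences, medLN minus MLN, of Foxp3+ against Foxp3- cells. It passed for 318 of 10559 genes (3.01%), 209 with a relatively higher medLN level in Foxp3+ cells (1.98%) and 109 with a lower one (1.03%). Cell cycle genes made up 14 of these, of 16 tested (median 1.34): Mki67 was at 17.8 to 30.3 CPM in all Foxp3- samples, and the excess of Foxp3+ cells was 1.65 ± 0.18 larger in medLN on the log2 scale (adjusted p = 3.9e-09). Lgals1 (1.13 ± 0.11), S100a6 (1.45 ± 0.27) and S100a4 (1.95 ± 0.41) also differed in this test, as did Ly6c1 (-0.97 ± 0.15), Bcl2 (-0.87 ± 0.12) and the STAT5 feedback inhibitors Socs1 (-0.76 ± 0.11), Cish (-0.65 ± 0.15) and Socs3 (-0.58 ± 0.15) the other way. The last 3 stood relatively higher in MLN Foxp3+ cells. For Tnfrsf4, Tigit and Itgb1 it did not pass (0.19 ± 0.12, 0.57 ± 0.30 and 0.20 ± 0.25), and their Foxp3- levels leaned the same way, and neither did Ccr9 (-0.87 ± 0.42). The count fell to 14 without the dividing cells, to 14 with cells thinned after the call and to 96 in DESeq2.

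Within the Foxp3+ cells, Icos, a costimulatory receptor of activated Treg cells, was used to part the cells after each cell had been thinned to 1500 UMIs. Icos was detected then in 57, 82, 33 and 51 cells and not detected in 163, 178, 148 and 180. Of 3691 genes 298 differed (8.07%), 138 higher (3.74%) and 160 lower (4.33%) in Icos+ cells. Foxp3, which chose the cells and was not tested, was at 658, 776, 731 and 761 CPM in Icos+ and 661, 666, 579 and 691 CPM in Icos- cells, with overlap. Il2ra did not pass, at 587, 579.6, 812 and 525 CPM and 513, 643, 542 and 669 CPM (-0.12 ± 0.13, adjusted p = 0.73).

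Genes of suppression and of the effector state were among those that rose. Ctla4 was at 928, 1061, 812 and 1063 CPM in Icos+ and 246, 301, 339 and 294 CPM in Icos- cells (1.59 ± 0.13, adjusted p = 6.7e-14), with no overlap. Tnfrsf4 was at 1209.5, 1331, 1278 and 814 CPM and 497, 681, 303 and 275 CPM (1.21 ± 0.12), so that MLN 1 Icos+ cells held as much of it as medLN Icos+ cells. Maf, a factor of IL-10-producing Treg cells, was at 235, 237, 244 and 328 CPM and 53.4, 45.1, 54.2 and 52.0 CPM (2.19 ± 0.25), with all 4 Icos- samples close together. Tigit differed by 2.18 ± 0.25, Itgae by 2.16 ± 0.26, Lag3 by 1.92 ± 0.32, Batf by 1.11 ± 0.20, Gzmb by 2.60 ± 0.36 and Ccr2 by 3.59 ± 0.53. Asb2, a ubiquitin ligase subunit of effector T cells, was at 23.5, 73.5, 162 and 131 CPM and 8.21, 3.76, 4.52 and 0 CPM (4.14 ± 0.72), the largest difference by the rule, with medLN 1 the weakest sample. Glrx (glutaredoxin) was at 176, 286, 325 and 276 CPM and 53.4, 33.8, 36.2 and 40.9 CPM (2.51 ± 0.27).

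Lower in Icos+ cells were genes of quiescence and recirculation. Igfbp4 was at 0, 24.5, 20.3 and 13.1 CPM in Icos+ and 144, 203, 113 and 294 CPM in Icos- cells (-3.78 ± 0.41, adjusted p = 1.4e-10), and Klf2, which drives the genes of recirculation, at 329, 343, 142 and 276 CPM and 833, 809, 728 and 781 CPM (-1.60 ± 0.15, adjusted p = 1.1e-12). Bcl2 was at 47.0, 81.6, 101 and 131 CPM and 226, 241, 253 and 372 CPM (-1.77 ± 0.25), and S1pr1, Tcf7 and Lef1 differed by -1.18, -1.17 and -1.20. No Icos+ sample reached its Icos- partner in Klf2 or Bcl2. By list, effector genes were higher in 12 of 17 cases and lower in 0 (median 1.37), Treg core genes in 9 of 17 and 0 (0.64), suppressive molecules in 6 of 10 and 0 (1.19), cell cycle genes in 6 of 11 and 0 (1.11), tissue-repair genes in 3 of 7 and 0 (1.09), and resting genes were lower in 11 of 14 and higher in 0 (-1.18). Homing genes split into 4 higher and 3 lower of 15, partner factors into 1 and 3 of 19, IL-2 pathway genes into 0 and 2 of 15, interferon genes into 2 and 0 of 12, TCR response genes into 1 and 1 of 9, thymic genes into 1 and 0 of 4, Maf stood for the induced list, and the 1 helper cytokine gene did not pass. The lists overlap in members, so these counts are not independent of each other. DESeq2 called 176 genes and the unthinned counts, where Icos+ cells are the deeper ones, 1152.

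**Figure D4:**
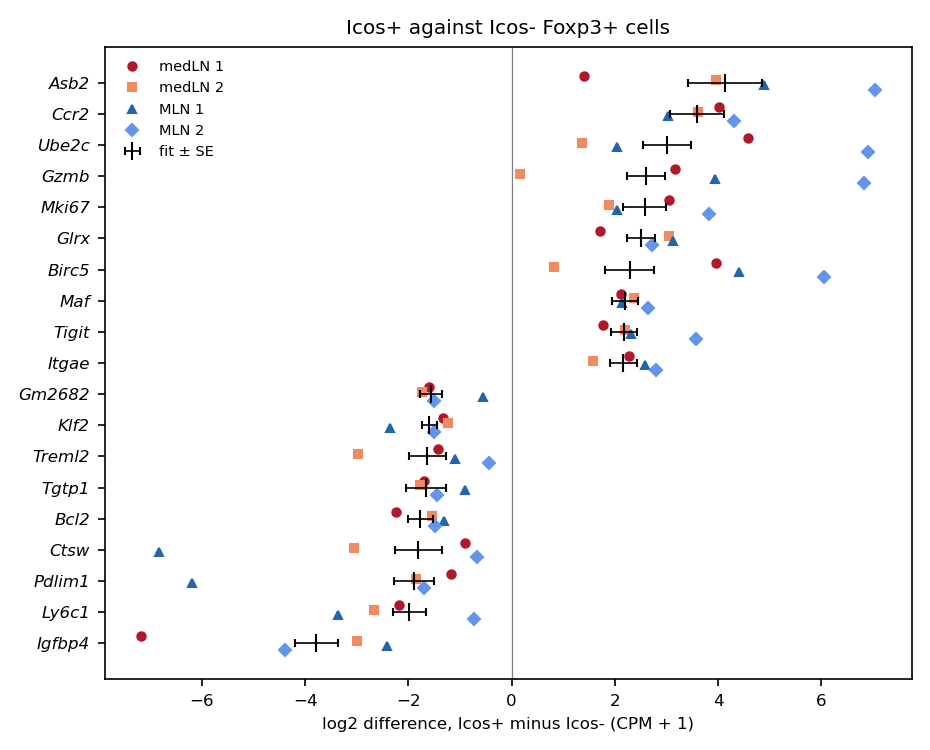
Log2 differences of CPM + 1 between Icos+ and Icos- Foxp3+ cells, thinned to 1500 UMIs, for 19 genes named by the size of their change, with 1 colored point per hashtag sample and the fitted value with its standard error in black. All points of the 10 upper genes lie above 0 and all points of the 9 lower genes below 0, from 4.14 for Asb2 to -3.78 for Igfbp4.

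To set Foxp3+ cells beside conventional cells chosen by the same receptor, the Icos+ Foxp3+ cells were compared with Foxp3- cells that also had an Icos UMI (156, 176, 145 and 157 cells). Of 3594 genes 493 differed (13.7%), 243 higher (6.76%) and 250 lower (6.96%) in Foxp3+ cells. The Treg core was again higher, with 16 of 17 genes higher and 0 lower (median 2.28). Ctla4 was at 928, 1061, 812 and 1063 CPM against 68.7, 164, 129 and 158 CPM (2.72 ± 0.16, adjusted p = 2.9e-22) and Tnfrsf4 at 1209.5, 1331, 1278 and 814 CPM against 124, 239.8, 115 and 115 CPM (2.75 ± 0.15). Il2ra differed by 2.39 ± 0.19, Ikzf2 by 2.18 ± 0.19, Cish by 1.73 ± 0.25 and Pim1 by 1.82 ± 0.23. Suppressive molecules were higher in 9 of 9 cases (1.95), effector genes in 12 of 19 (1.38) and cell cycle genes in 7 of 9 (1.38), none of them lower.

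Resting genes were lower in 14 of 15 cases (median -1.40). Igfbp4 was at 0, 24.5, 20.3 and 13.1 CPM in Foxp3+ and 438, 442, 439 and 631 CPM in Foxp3- cells (-5.11 ± 0.33), Tcf7 at 82.2, 131, 81.2 and 131 CPM and 493, 502, 568 and 579.9 CPM (-2.42 ± 0.20) and Klf2 at 329, 343, 142 and 276 CPM and 708, 589.9, 623 and 567 CPM (-1.27 ± 0.16). The groups did not overlap in any of the 3 genes. In the Icos+ Foxp3- cells Tcf7 stayed near its level in all Foxp3- cells given above, and Igfbp4 was somewhat lower. Both groups were chosen by Icos, but whether this matched them for activation was not tested. Of the other lists, IL-2 pathway genes were higher in 6 and lower in 2 of 14 cases, partner factors in 1 and 5 of 18, homing genes in 3 and 3 of 15, tissue-repair genes in 5 and 0 of 6, thymic genes in 3 and 0 of 4, TCR response genes in 2 and 1 of 10 and interferon genes in 2 and 1 of 12, Maf was higher (1.94 ± 0.26), and Cd40lg, 1 of 2 helper cytokine genes, was lower. With Cd44 in place of Icos, where 12 to 29 Foxp3+ cells per sample remained, 101 genes were called, and with the unthinned counts 1626.

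The last comparison was that of the 941 Foxp3+ cells with the 168 Foxp3+ cells of the IL-4eGFP+ gate, 21, 28, 54 and 65 by sample. The reporter chose these cells, and Il4 was at 67.5, 67.0, 39.2 and 87.0 CPM in them and at 1.01, 1.69, 0 and 0 CPM in IL-4eGFP- Foxp3+ cells, values given as a check of the gate. The Foxp3+ IL-4eGFP+ cells had at the median 3373 to 4367 UMIs, and 23.8, 35.7, 24.1 and 29.2% of them had a UMI of Mki67, Top2a or Birc5, against 19.4 to 22.3% of the Foxp3- cells of that gate. Of 7062 genes 482 differed (6.83%), 242 higher (3.43%) and 240 lower (3.4%) in the IL-4eGFP+ gate, and 305 without the hashtag sample as a block. Without the cells with a UMI of Mki67, Top2a or Birc5, an alternative chosen after seeing the data, 433 genes were called. Of these, 241 were among the 482, 239 of them in the same direction, so 50% of the 482 calls were kept.

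Relative to IL-4eGFP+ Foxp3+ cells, the IL-4eGFP- Foxp3+ cells had more IL-2 receptor and more resting genes. Il2ra was at 323, 357, 321 and 383 CPM in IL-4eGFP+ and 549, 516, 592 and 554 CPM in IL-4eGFP- cells (-0.74 ± 0.13, adjusted p = 0.0017), Il2rb at 293, 238, 216 and 235 CPM and 387, 406, 404 and 437 CPM (-0.82 ± 0.15), and Socs1 differed by -1.09 ± 0.21. The 4 samples of 1 gate did not overlap with those of the other in the first 2 genes. Foxp3, as the gene that chose the cells, was at 300.1, 499, 343 and 339 CPM and 469, 530.0, 576 and 590.2 CPM. Bach2, a repressor that keeps T cells quiescent, was at 0, 37.2, 9.81 and 8.70 CPM and 61.8, 53.3, 74.3 and 96.2 CPM (-2.69 ± 0.43), and Klf2 at 510.2, 268, 124 and 209 CPM and 534, 547, 547 and 550.3 CPM (-1.19 ± 0.22). The other resting genes included the one exception, Satb1, a chromatin organizer, which was higher in the IL-4eGFP+ gate (0.74 ± 0.15).

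Higher in IL-4eGFP+ Foxp3+ cells were Id2, at 270.1, 201, 121 and 101 CPM against 26.3, 34.7, 29.2 and 16.4 CPM (2.60 ± 0.24, adjusted p = 9.3e-07), and Epas1 (HIF-2α), at 218, 156, 167 and 168 CPM against 20.3, 33.0, 33.5 and 31.7 CPM (2.50 ± 0.23). Gzmb was at 638, 156, 464 and 644 CPM against 148, 69.4, 53.9 and 150.2 CPM (2.11 ± 0.19), and Gata3, the factor of type 2 cells that Treg cells also use, at 270.1, 179, 114 and 203 CPM against 99.3, 97.4, 72.9 and 63.4 CPM (1.14 ± 0.19). Icos was at 668, 543, 559 and 649.5 CPM against 459.9, 421, 232 and 317 CPM (0.76 ± 0.14), and Irf4 and Maf differed by 1.30 ± 0.25 and 1.10 ± 0.17. These are higher in each sample of the IL-4eGFP+ gate than in its IL-4eGFP- partner. Lgals7, a galectin gene, had the largest difference by the rule, at 195, 44.7, 85.0 and 136 CPM against 5.06, 9.31, 23.3 and 1.17 CPM (3.52 ± 0.45). The 5 markers of NK and NKT cells summed to 0 to 398 CPM in the IL-4eGFP+ Foxp3+ samples and to 12.9 to 23.3 CPM in the IL-4eGFP- ones. Of these, Ncr1, Zbtb16 and Klrd1 had no UMI in the IL-4eGFP+ samples, and Ncr1 and Zbtb16 none in the IL-4eGFP- ones. The part of such cells in these differences was not tested.

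By list, cell cycle genes were higher in the IL-4eGFP+ gate in 11 of 16 cases and lower in 0 (median 1.03), effector genes in 11 and 1 of 23 (0.83), suppressive molecules in 4 and 0 of 13 (0.29) and homing genes in 6 and 4 of 20. Resting genes were higher in 1 and lower in 9 of 14 cases (-1.09), IL-2 and STAT5 pathway genes in 0 and 6 of 15 (-0.41), interferon genes in 1 and 5 of 13 (-0.49), Treg core genes in 1 and 2 of 20 (-0.15) and partner factors in 4 and 5 of 20. Of the Treg core, 17 genes did not pass the test. Of 8 tissue-repair genes 2 were higher, of 5 follicular genes 1, of 12 TCR response genes 1 with 1 lower, Maf of the induced list, and none of the 4 thymic genes, while of 3 helper cytokine genes high enough to test only Il4 was past the threshold, which the gate itself fixed. The number of calls rested on the MLN samples, where most IL-4eGFP+ Foxp3+ cells were: it was 231 without MLN 1 and 203 without MLN 2. With at least 2 Foxp3 UMIs, which left 10 to 27 IL-4eGFP+ cells per sample, it was 55.

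**Figure D5:**
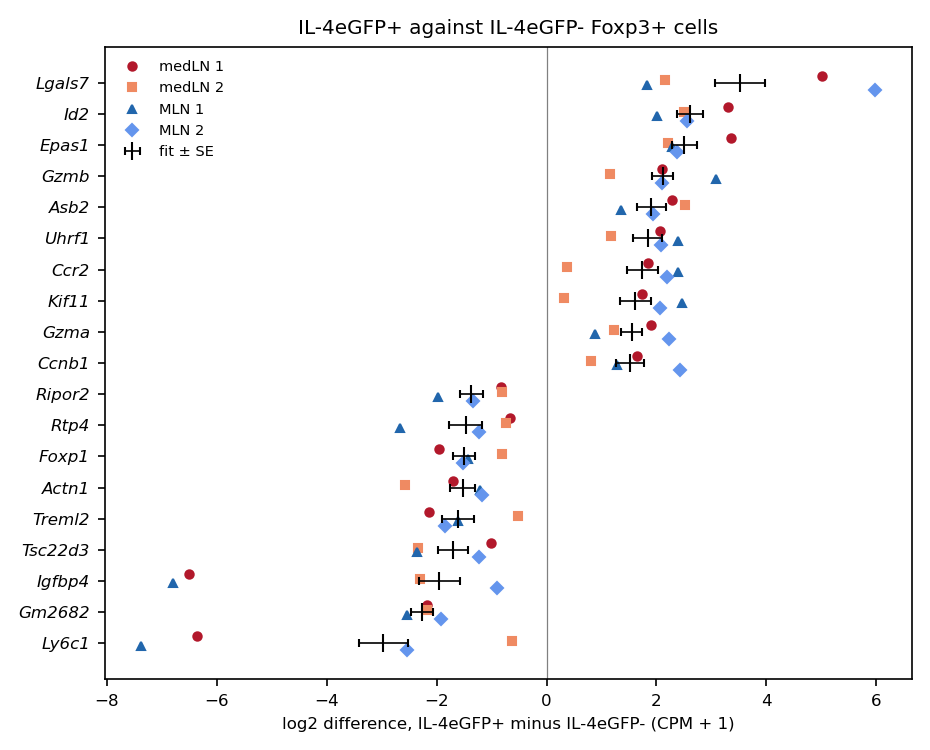
Log2 differences of CPM + 1 between IL-4eGFP+ and IL-4eGFP- Foxp3+ cells for 19 genes named by the size of their change, with 1 colored point per hashtag sample and the fitted value with its standard error in black. The points below -6, of Ly6c1 and Igfbp4, belong to the samples with 21 and 54 IL-4eGFP+ cells, in which the gene had no UMI, and the fitted values run from 3.52 for Lgals7 to -2.97 for Ly6c1.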

How the data were processed

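CD4+ T cells of medLN and MLN of 2 mice were analysed at day 10 of infection, 1 library per sort gate, beside an earlier run of IL-4eGFP+ cells from lung and MLN. The deposited values are UMI counts per gene and cell, which the authors made with Cell Ranger (6.1.2 for the nodes, an earlier version for the earlier run, builds mm10 and GRCm38 per the labels) with both gates of the nodes aggregated. Whether the aggregation equalised depth is not given in the sources used here. Cells were kept with over 500 UMIs, over 500 genes and under 7% mitochondrial UMIs, and were assigned to a hashtag with at least 10 UMIs and 80% of hashtag UMIs. UMIs were then summed per hashtag sample and group, without 263 TCR segment genes, and tested with edgeR 4.0.16 (R 4.3.3; filterByExpr, TMM, quasi-likelihood) with hashtag sample as a block, except between the nodes, and called at an adjusted p of 0.05. Summed UMIs of the Foxp3+ samples, 688491 to 1185166, set the precision. Icos groups were made from cells thinned to 1500 UMIs. DESeq2 1.42.0 was an alternative. Fitted differences lie under CPM ratios by 0.16, 0.0735, 0.152, 0.178 and 0.0547 (log2, median gene) for Foxp3, node, Icos, Foxp3 within Icos+ and gate. Exact intervals and permutations used scipy 1.17.1.

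The cells and the gene lists were chosen with earlier results of these data known. Besides list members, genes were named by rule: the 10 largest changes each way past the threshold (5 each way between nodes and Foxp3 status together), with a mean of at least 50 CPM and 1 direction in all samples. A few genes of the lists and the rule are not reported here. Mouse numbers pair the nodes, since a medLN and an MLN sample came from the same mouse, and deviations of same-numbered samples correlated by 0.0424 over 2 pairs. On simulated counts with log2 changes of 2, the 6 fits recovered 187 of 197, 178 of 191, 157 of 198, 169 of 178, 163 of 174 and 181 of 194 changed genes, in the order of the report. In the same order they made 9, 13, 6, 5, 4 and 2 false calls. The simulation gave all genes of a fit 1 dispersion and held no single cells with many UMIs of a gene, so it was simpler than the data. Scrublet marked 0 doublets and so had not worked, and removal of the top 5% of its scores stood in for it.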

Additional observations from a re-analysis of the deposited data

Results flagged for a closer look

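For Igkv17-127 the sample medLN 1 stood apart from the other 3 in the log2 difference between Foxp3+ and Foxp3- cells (gap over range 0.908), and 11671 of the gene's 11691 UMIs were in 1 Foxp3- cell. It was 1 of 21 groups of 4 samples tested in this way, which were named genes and the share of Foxp3+ cells, and of which chance flags about 1 in 20.

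The difference between Foxp3+ and Foxp3- cells differed between medLN and MLN, by the test of that difference in edgeR's quasi-likelihood fit, for the following named genes, with the medLN minus MLN value on the log2 scale. Genes of DNA replication and division stood relatively higher in medLN Foxp3+ cells, with 2.41 for Hist1h1b, 2.38 for Pclaf, 2.20 for Top2a, 2.15 for Ube2c and 2.104 for Hist1h2ap. The values were -1.10 for Atn1, -1.001 for Ssbp2, -0.97 for Ly6c1 and -0.93 for Cd83. For Igkv5-48 it was -20.06, where 6042 of 6048 UMIs were in 1 cell.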

How the results depend on the processing

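Of single genes named or held by the rule, 8 of 1101 values under alternatives reversed between Foxp3+ and Foxp3- cells, 10 of 634 between nodes, 1 of 176 in the node and Foxp3 test, 1 of 499 between Icos groups, and 0 of 463 and 0 of 511 in the comparisons within Icos+ cells and between gates. These totals, and the 17 alternative fits named above, include the Scrublet setting, which removed 0 cells and so could not change a value. Without any cell holding a B cell, CD8, myeloid or erythroid marker, the counts of genes called were 342 (Foxp3), 2 (node), 1 (node and Foxp3), 0 (Icos; 28 at an unadjusted p under 0.05) and 78 (Foxp3 within Icos+), as few cells were left, and the gate comparison could not be run because 1 sum had no cells. There, between Foxp3+ and Foxp3- cells, Lgals1 was -0.031, S100a6 -0.45 and Socs3 0.48, between nodes Gpr83 was 0.077, Lgals1 -0.037, Il2ra 0.077, Ctla4 -0.42, Gzma 0.11 and Bcl2 0.11, and Ly6c1 was 0.14 in the node and Foxp3 test. DESeq2 called 142 (node), 96 (node and Foxp3), 176 (Icos) and 297 (Foxp3 within Icos+) genes. With cells thinned before the Foxp3 call the counts were 1283, 10, 5 and 132 (Foxp3, node, node and Foxp3, gate), and thinned after it, 1639, 45, 14 and 277. Without dividing cells they were 19 (node) and 14 (node and Foxp3). With unthinned counts they were 1152 (Icos) and 1626 (Foxp3 within Icos+), with Cd44 in place of Icos 101, and with at least 2 Foxp3 UMIs 55 (gate). The causes were not tested. Thinning after the call, leaving out dividing cells, cells with a defining marker or the top doublet scores were alternatives chosen after seeing the data.

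Socs3 between Foxp3+ and Foxp3- cells was 0.33 and 0.30 thinned before and after the call, 0.17 without dividing cells and between -0.178 (without MLN 1) and 0.034 (without medLN 2) when 1 sample was left out, with both fits that left out a medLN sample above 0. Ctla4 between nodes was between -0.0360 (without MLN 1) and 0.14 (without MLN 2) in such fits, -0.14 with at least 2 Foxp3 UMIs, -0.067 thinned before the call and -0.059 without dividing cells, and Il2ra between Icos groups between -0.23 (without MLN 1) and 0.020 (without MLN 2). Leaving out 1 sample at a time gave 1826 to 2441 genes (Foxp3), 157 to 317 (node, lowest without medLN 2), 218 to 277 (node and Foxp3), 216 to 263 (Icos), 356 to 425 (Foxp3 within Icos+) and 203 to 623 (gate, lowest without MLN 2, and 231 without MLN 1). A lone sample of a node was then assumed to vary like the others. With the mouse as a replicate block the nodes differed in 437 genes, and without the block the gates differed in 305. Foxp3+ shares were 6.79, 8.48, 4.98 and 7.18% on thinned counts and 5.47, 7.20, 4.68 and 5.77% with at least 2 Foxp3 UMIs. The 14 DESeq2 values without an adjusted p were left out.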
